A study of Mus musculus with 16 samples.

Results

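Methylation of 60–65 μm oocytes was measured by PBAT and by RRBS, and both assays were compared cytosine by cytosine. The comparison took the CpG cytosines of chromosomes 1 to 19, each strand on its own, that had at least 5 calls in the PBAT library and in both RRBS libraries, A and B, of this size class. There were 287767 such shared cytosines, of 28647851 autosomal CpG cytosines listed in any of the 7 methylation libraries of the series. They lay on 274791 CpG dinucleotides, and both strands were shared at 12976 of these. All 3 libraries came from wild-type oocytes of mice before puberty, labelled C57BL/6 and of the substrain C57BL/6Babr by the methods of the study, sorted by diameter after isolation from the ovary. The RRBS libraries were duplicates from larger pools of oocytes, whereas PBAT was a single library from a smaller pool and had no replicate. Nothing says that A and B came from separate animals, so tests that rest on them measure only the spread between these libraries. Assay, pool, number of oocytes and sequencing therefore changed together between PBAT and RRBS and cannot be told apart. The RNA-seq libraries of the same size class held oocyte transcripts. All 15 listed oocyte genes, such as those of the zona pellucida, were at 1 RPKM (reads per kilobase of exon, scaled to the reads of the library) or more, with a sum of 4218 and 4515 RPKM in the 2 libraries. The 10 listed granulosa cell genes summed to 7.15 and 7.75 RPKM, with Nr5a2 and Cyp19a1 alone above 1 RPKM, and none was at 0. The RNA libraries do not check the cells in the methylation libraries.

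The mouse oocyte acquires its DNA methylation while it grows, and genes that it transcribes become the main methylated sequence. CpG islands (CGIs) are CpG-rich stretches, often at gene starts, and those of maternally imprinted genes that carry methylation from the oocyte are called gDMRs (germline differentially methylated regions). Bisulphite leaves methylated cytosine unchanged and converts unmethylated cytosine, which is then read as thymine. RRBS digests DNA with MspI, which cuts within the sequence C/CGG, and reads inwards from the cuts, so that its calls are concentrated in CpG-rich sequence close to MspI sites. PBAT adds adaptors after the conversion and has no such preference for sites.

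The sequences below are MspI fragments with shared cytosines, and show what both assays read at the same bases. They were chosen after their values were seen, to show fragments on which the assays gave similar levels and fragments on which they did not. Each is the plus strand of GRCm38, 5′ to 3′, from the base after an MspI cut to the CpG of the next MspI site. Capitals mark CpGs with a shared cytosine on either strand. None overlaps an annotated UTR in GENCODE M21. The first group comprises genes at maternal gDMRs, namely Snurf (chr7:60004650-60004901), Plagl1 (chr10:13091040-13091112), Nnat (chr2:157560311-157560478), Grb10 (chr11:12026426-12026469 and chr11:12026767-12026881), Gnas (chr2:174299082-174299143) and Zfp777 (chr6:48048378-48048419). The fragments of Nnat and Gnas overlapped coding exons and the others lay in introns.
Snurf: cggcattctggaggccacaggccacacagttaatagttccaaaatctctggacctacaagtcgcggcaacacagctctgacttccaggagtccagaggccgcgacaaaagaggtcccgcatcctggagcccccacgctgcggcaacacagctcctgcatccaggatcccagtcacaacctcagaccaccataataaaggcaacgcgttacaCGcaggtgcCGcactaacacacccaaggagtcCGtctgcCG
Plagl1: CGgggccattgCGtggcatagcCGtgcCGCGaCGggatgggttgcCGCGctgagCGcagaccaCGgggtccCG
Nnat: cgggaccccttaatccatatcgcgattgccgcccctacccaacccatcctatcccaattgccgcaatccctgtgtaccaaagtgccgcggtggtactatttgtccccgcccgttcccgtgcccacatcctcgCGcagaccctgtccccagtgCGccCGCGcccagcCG
Grb10, first fragment: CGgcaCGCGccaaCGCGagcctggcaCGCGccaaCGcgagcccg
Grb10, second fragment: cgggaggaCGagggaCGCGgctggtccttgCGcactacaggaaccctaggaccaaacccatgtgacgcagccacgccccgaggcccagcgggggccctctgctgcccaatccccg
Gnas: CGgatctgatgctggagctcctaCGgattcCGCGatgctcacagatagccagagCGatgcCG
Zfp777: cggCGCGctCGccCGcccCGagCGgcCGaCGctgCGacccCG

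Over the 4 shared cytosines of the Snurf fragment, all on the minus strand, PBAT gave 75.6%, RRBS A gave 35.8% and RRBS B gave 23.5%. This stretch lies in the annotated bodies of both Snurf and Snrpn. Along the fragment the PBAT calls were 3 methylated of 6, 4 of 6, 6 of 7 and 5 of 5. The calls of RRBS A at the same cytosines were 6 of 25, 12 of 26, 11 of 26 and 8 of 26, and those of RRBS B were 2 of 17, 5 of 20, 7 of 21 and 5 of 21. PBAT was above both RRBS libraries at each of these cytosines, on 5 to 7 PBAT calls. At the first fragment of Grb10, an adaptor protein of growth factor signalling, the order was the opposite, with 14.5% in PBAT, 48.3% in RRBS A and 65.3% in RRBS B over 8 cytosines of the plus strand. At the second Grb10 fragment the libraries gave 50%, 55.3% and 61.2%, so that PBAT was below both RRBS libraries at both places, by less at the second. Nnat, which encodes a membrane proteolipid of neurons, had 45.8% in PBAT, 28.2% in RRBS A and 24.4% in RRBS B over 5 cytosines. Plagl1, a zinc finger transcription factor, had 47.4%, 55.9% and 70.2% over 12 cytosines. At Gnas, which encodes a G protein subunit, PBAT lay between the RRBS libraries, with 54.2% against 49.2% in A and 58.7% in B over 9 cytosines. At the Zfp777 fragment PBAT gave 6.51% over 10 cytosines, whereas both RRBS libraries gave 0.

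The second group comprises genes of the early and late methylated CGIs of the study and other genes named below: Samm50 (chr15:84192382-84192468), Smarca2 (chr19:26640469-26640513), Shank2 (chr7:144284311-144284374), Pvrl1, named Nectin1 in the annotation (chr9:43803609-43803722), Dnmt3l (chr10:78057291-78057434), Dnmt3a (chr12:3807386-3807442), Tet2 (chr3:133544526-133544569), an intron fragment at the start of 6330503K22Rik, named Ccp110 in the annotation (chr7:118712847-118712914), and a fragment just upstream of Vmn2r29 that overlaps no annotated gene (chr7:7278368-7278427). The fragments of Samm50, Smarca2, Pvrl1 and Dnmt3l overlapped coding exons, and those of Shank2, Dnmt3a and Tet2 lay in introns.
Samm50: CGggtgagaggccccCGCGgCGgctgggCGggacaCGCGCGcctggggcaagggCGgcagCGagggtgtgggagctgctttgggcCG
Smarca2: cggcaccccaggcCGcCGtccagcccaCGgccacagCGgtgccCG
Shank2: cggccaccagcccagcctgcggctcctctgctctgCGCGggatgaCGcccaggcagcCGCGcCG
Pvrl1: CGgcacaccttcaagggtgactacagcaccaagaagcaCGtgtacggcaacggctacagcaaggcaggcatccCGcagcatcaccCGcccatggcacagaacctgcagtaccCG
Dnmt3l: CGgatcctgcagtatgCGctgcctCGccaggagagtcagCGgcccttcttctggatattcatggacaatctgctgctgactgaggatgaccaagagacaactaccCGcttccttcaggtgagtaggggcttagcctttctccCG
Dnmt3a: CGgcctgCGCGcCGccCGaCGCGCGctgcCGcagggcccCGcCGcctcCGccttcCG
Tet2: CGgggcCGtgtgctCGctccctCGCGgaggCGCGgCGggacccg
6330503K22Rik: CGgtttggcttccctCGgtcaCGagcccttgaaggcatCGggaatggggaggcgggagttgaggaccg
Vmn2r29: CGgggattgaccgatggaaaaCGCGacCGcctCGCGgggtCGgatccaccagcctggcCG

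Smarca2, Dnmt3l, Shank2 and Pvrl1 were chosen as fragments with high and similar levels in all libraries. Smarca2, a chromatin remodelling ATPase, had 88.8% in PBAT, 82.2% in RRBS A and 95% in RRBS B over 5 cytosines. Dnmt3l, the cofactor of the de novo methyltransferases, had 71.1%, 70.6% and 66.4% over 6 cytosines. Shank2, a scaffold protein of synapses, had 78.1%, 75.9% and 66.7% over 6 cytosines, and Pvrl1, a cell adhesion molecule, had 76.8%, 69.2% and 69.4% over 5. At the unmethylated fragment of the methyltransferase gene Dnmt3a, all 3 libraries were between 0.475% and 1.14% over 19 cytosines. The Samm50 fragment, of a gene for a mitochondrial outer membrane protein, had 37.9% in PBAT against 6.95% and 7.49% in RRBS over 11 cytosines. Its 3 cytosines on the minus strand had 66.7 to 83.3% in PBAT and 0 to 16.7% in RRBS, on 5 or 6 calls each. The 8 on the plus strand had 9.09 to 50% in PBAT and 0 to 28.6% in RRBS. The fragment at 6330503K22Rik had 28.6% against 0.833% and 0 over 4. The fragment at Vmn2r29, a vomeronasal receptor gene, had 19.1% in PBAT against 61.6% in A and 78.4% in B over 8 cytosines. The Tet2 fragment, of a gene for a 5-methylcytosine dioxygenase, shows on how few molecules such values can rest. On its plus strand PBAT had 0 methylated calls at all 8 shared cytosines, and on its minus strand 5 of 7 cytosines had 2 methylated calls each, of 5 or 6. Neighbouring cytosines of a strand share reads and are not separate measurements.

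The shared cytosines were a small and CpG-rich share of what PBAT covered. PBAT had at least 5 calls at 6382302 autosomal cytosines, RRBS A at 867736 and RRBS B at 682474, and both RRBS libraries at 651080, of which 44.2% had at least 5 calls in PBAT. The median number of calls at the shared cytosines was 7 in PBAT, 31 in RRBS A and 20 in RRBS B, so that a PBAT value could take few levels. No duplicate removal is stated for RRBS, so its calls may not be independent molecules, and counting errors given here are best read as lower limits. Mean methylation over all PBAT cytosines was 22.1%. It was 23.1% at the 91.9% of PBAT cytosines that neither RRBS library listed, and 11.1% at the shared cytosines. At the same cytosines the mean was 7.43% in RRBS A and 7.72% in RRBS B. Of the shared cytosines, 55.6% lay within 1 kb of a gene start, 44.2% had 20 or more CpGs within 100 bp on either side, and 31.0% were in an MspI site.

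PBAT was higher than RRBS on average. The mean difference, PBAT minus the mean of A and B, was 3.52 percentage points ± 0.206 (SD over the differences from A and from B, n = 2), and the difference between A and B was −0.292 points. It was positive on all 19 autosomes, between 3.18 and 3.93 points, which describes these libraries and gives no replicate of PBAT. The share of cytosines with PBAT within 20 points of the RRBS mean was 90.5%, which rests on the many cytosines near 0. Between single libraries it was 90.4% for PBAT and A, 89.4% for PBAT and B, and 95.1% for A and B. At the 93233 cytosines with 10% or more in PBAT or mean RRBS it was 70.2%, 67.2% and 85.0%. Pearson's r across cytosines was 0.817 between PBAT and A, 0.790 between PBAT and B, and 0.890 between A and B (n = 287767 cytosines each). Corrected for counting error, which is larger in PBAT, r was 0.922, 0.893 and 0.931. At the 93233 cytosines with 10% or more in PBAT or mean RRBS, the corrected r was 0.977 between PBAT and A, 0.912 between PBAT and B, and 0.909 between A and B. These cytosines were selected by the values of the same libraries. Their mean difference was 12.2 points for PBAT minus A, 10.8 for PBAT minus B and −1.47 for A minus B. The root mean square difference beyond counting error was 14.6, 16.8 and 12.1 points there. Over all shared cytosines, neighbours share reads and most were near 0 in every library. The root mean square difference was 13.02 points between PBAT and A, of which counting error accounts for 9.92 points. What remained beyond counting error was 8.44 points for PBAT and A, 9.65 for PBAT and B, and 7.11 for A and B. The pairs with PBAT thus differed beyond counting error by more than the RRBS replicates did. All 3 libraries were at 10% or less at 66.5% of shared cytosines and at 75% or more at 1.22%. Opposite levels were rare, between the RRBS replicates as well. PBAT was at 75% or more where A and B were both at 10% or less at 117 cytosines, and the reverse was seen at 16. Between the replicates, A was at 75% or more and B at 10% or less at 43 cytosines, and the reverse was seen at 122.

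**Figure D1:**
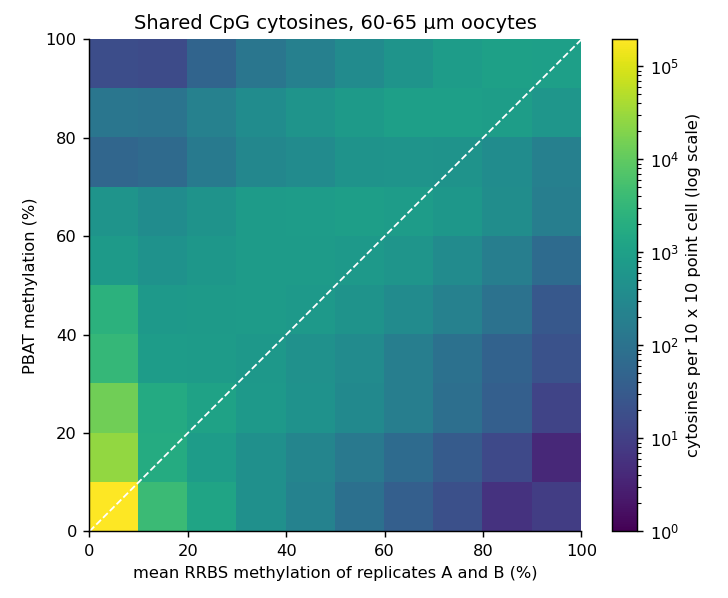
Number of shared cytosines by mean RRBS methylation (x axis, %, mean of replicates A and B) and PBAT methylation (y axis, %), in cells of 10 by 10 points with colour on a log scale. The cell with both below 10% holds 194534 of 287767 cytosines, or 80.1% of those with mean RRBS below 10%.

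Means over regions were compared in the same way. Over 15221 windows of 2 kb with at least 5 shared cytosines (median 10), r was 0.947 between PBAT and A, 0.939 between PBAT and B, and 0.971 between A and B. PBAT lay within 20 points of RRBS in 97.9% of windows. Over 12733 gene bodies with at least 3 shared cytosines, r was 0.930 and 0.920 with PBAT, and 0.962 between A and B. Over 9630 gene starts with at least 5 shared cytosines (median 15), where mean methylation was 4.03% in PBAT, 1.18% in A and 1.36% in B, r was 0.805 and 0.781 with PBAT, and 0.930 between A and B. Among regions with 10% or more in PBAT or RRBS, which were selected by the compared values, r with PBAT was 0.911 and 0.891 over 3190 windows, and 0.905 and 0.873 over 579 gene starts, and r between A and B was 0.947 and 0.946. The difference was smaller at cytosines with more PBAT calls. It was 3.91 points at 63807 cytosines with 5 calls, 2.99 points at 69280 cytosines with 10 to 19 calls, and 2.24 points ± 1.24 (SD over autosomes, n = 19) at 8090 cytosines with 20 to 49 calls. At the 493 cytosines with 50 or more calls, on 14 autosomes, it was −0.756 points ± 14.2 (SD over autosomes, n = 14) and positive on 5 of them. Of the 493, 407 lay in 1 stretch of ribosomal RNA genes on chromosome 17, described last, where the difference was 1.12 points. At the other 86 it was −9.64 points, with 28.8% in PBAT against 37.04% and 39.8%.

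Where RRBS found no methylation, PBAT found a low level. At the 179563 cytosines without a methylated call in A or B, mean PBAT methylation was 3.71% ± 0.179 (SD over autosomes, n = 19), and 53435 of 1528322 PBAT calls were methylated, or 3.50% (95% Wilson interval 3.47 to 3.53%, counting error only). The same measure within RRBS was lower. Mean methylation was 0.756% in B at cytosines without a methylated call in A and PBAT, and 0.840% in A at cytosines without one in B and PBAT. Of the 179563 cytosines, 21.7% had a methylated PBAT call and 0.398% had 50% or more in PBAT. The PBAT level at these cytosines was higher where CpGs were sparse. It was 6.70% at 1 to 4 CpGs within 100 bp, 5.71% at 5 to 9, 4.07% at 10 to 14 and 3.34% at 20 or more. It rose likewise with distance from the nearest gene start, from 3.40% under 250 bp to 4.74% at 5 to 20 kb and 6.67% beyond 100 kb. It was lower at greater PBAT depth, with 4.15% at 5 calls, 3.87% at 6 to 9, 3.15% at 10 to 19 and 2.30% at 20 or more. Mitochondrial DNA, where CpG methylation is held to be low, gave values for all 3 libraries. Over 147 mitochondrial cytosines with at least 5 calls in each, 2.95% of the 419371 PBAT calls were methylated (Wilson interval 2.898 to 3.0003%). The share was 1.32% of 111235 calls in RRBS A (1.25 to 1.39%) and 1.21% of 44702 calls in RRBS B (1.12 to 1.32%). Averaged over the cytosines, methylation was 3.31% in PBAT, 0.684% in A and 1.14% in B. The part of incomplete conversion in the difference between the assays was not tested.

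The difference depended on the methylation level. Cytosines were grouped by 1 RRBS replicate and PBAT was compared with the other replicate, so that the library used for grouping did not enter the difference. Grouped by A, PBAT exceeded B by 2.99 points ± 0.180 (SD over autosomes, n = 19 here and for the values that follow) where A was 0, and by 5.81 ± 0.630 where A was 10 to under 25%. The excess was 5.90 ± 1.28 at 25 to under 50%, 3.46 ± 1.24 at 50 to under 75%, and −0.0880 ± 1.34 at 75 to 100%. Grouped by B, PBAT exceeded A by 3.09 ± 0.170, 6.82 ± 0.610, 8.19 ± 1.43, 5.66 ± 1.03 and 1.88 ± 1.22 in the same classes. In both groupings the excess was highest between 10 and 50% and smallest at 75 to 100%. In the highest class the groupings gave means of 79.1% in PBAT and 79.2% in B, and of 74.6% in PBAT and 72.7% in A. A single contrast of cytosines at 50% or more against those under 10% gave −1.17 points when grouped by A but 0.778 when grouped by B. Its sign therefore depended on the replicate used. Grouped by the mean of A and B, or by PBAT itself, the class at 75 to 100% gave −5.91 and 19.99 points. In these groupings a library in the difference also defines the class.

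**Figure D2:**
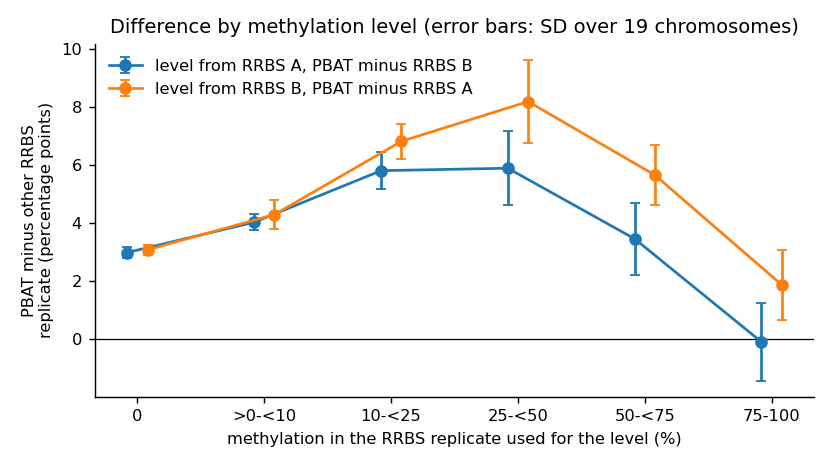
PBAT minus the RRBS replicate not used for grouping (y axis, percentage points) by methylation in the other RRBS replicate (x axis, %), with error bars for the SD over 19 autosomes. Both lines rise from 2.99 and 3.09 points at 0 to 5.90 and 8.19 points at 25 to under 50%, and fall to −0.0880 and 1.88 points at 75 to 100%.

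The excess of PBAT was larger where CpGs were sparse. With 1 to 4 CpGs within 100 bp on either side (21627 cytosines), PBAT had 22.8% and A and B had 16.3% and 16.4%, a difference of 6.48 points ± 0.520 (SD over autosomes, n = 19). The difference fell to 5.21 ± 0.431 at 5 to 9 CpGs, 3.63 ± 0.409 at 10 to 14 CpGs, 2.67 ± 0.299 at 15 to 19 CpGs and 2.63 ± 0.193 at 20 or more (127142 cytosines), where PBAT had 4.10% and A and B had 1.37% and 1.57%. The order by CpG number also held within classes of held-out level. At 10 to under 50% the excess fell from 9.51 points at 1 to 4 CpGs to 0.611 points at 20 or more when grouped by A, and from 10.7 to 2.38 points when grouped by B. At 50 to 100% it fell from 6.34 points at 1 to 4 CpGs to −6.13 points ± 10.9 at 20 or more when grouped by A, and from 7.13 to −0.195 ± 9.44 when grouped by B. At this level the differences at 20 or more CpGs were smaller than their spread over autosomes.

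The difference was smaller near gene starts, where methylation was low and CpGs were dense. Within 250 bp of the nearest gene start (82280 cytosines) PBAT had 4.06% and A and B had 1.22% and 1.40%, a difference of 2.76 points ± 0.209 (SD over autosomes, n = 19). It was 2.70 ± 0.114 at 250 bp to 1 kb and 3.73 ± 0.561 at 1 to 5 kb. Farther away it was 4.80 ± 0.643 at 5 to 20 kb, 4.82 ± 0.439 at 20 to 100 kb and 4.64 ± 1.45 beyond 100 kb. Counted from starts of genes at 0.5 RPKM or more, it fell again with distance. It was then 2.74 ± 0.328 within 250 bp, 4.48 ± 0.486 at 5 to 20 kb and 3.77 ± 0.336 beyond 100 kb. Within held-out levels and without CpG number held fixed, the order by distance remained below 10%. There the excess was 2.72 points ± 0.224 within 250 bp and 5.36 ± 1.14 beyond 100 kb when grouped by A. Grouped by B it was 2.86 ± 0.198 and 5.20 ± 0.914. At 10 to under 50% the same values were 2.23 ± 3.02 and 5.55 ± 2.65 by A, and 2.97 ± 1.91 and 6.96 ± 2.81 by B. At 50 to 100% and a fixed CpG number the excess was not smaller near gene starts beyond the spread. Grouped by A, it was, at 15 or more CpGs, −4.52 points ± 8.94 under 5 kb and −4.37 ± 6.10 at 5 kb or more, and at 1 to 9 CpGs it was 4.45 ± 3.98 and 3.90 ± 0.967. Grouped by B, the values were 2.09 ± 6.13 and 0.827 ± 5.49 at 15 or more CpGs, and 7.17 ± 3.29 and 4.79 ± 1.08 at 1 to 9. The sides of the start did not differ beyond this spread. Within 250 bp the difference was 2.68 points ± 0.289 upstream and 2.79 ± 0.267 downstream. By RNA level of the surrounding gene, the excess was 3.53 points in genes under 0.5 RPKM, 3.57 in genes of 0.5 to 5 RPKM, 3.39 in genes over 5 RPKM and 3.55 outside genes. These classes also differed in mean PBAT methylation, from 7.62 to 14.4%, and in the share of cytosines in MspI sites, from 26.7 to 35.5%, which were not held fixed.

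**Figure D3:**
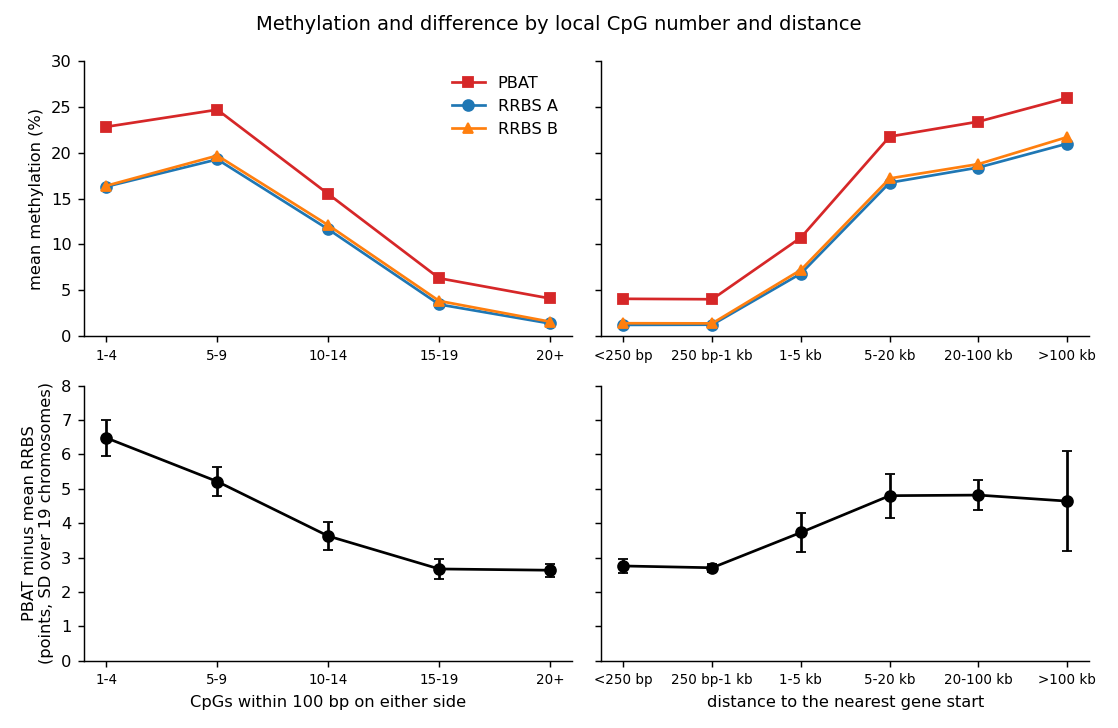
Mean methylation of the 3 libraries (top, %) and PBAT minus mean RRBS (bottom, percentage points, error bars for the SD over 19 autosomes) by CpG number within 100 bp (left) and distance to the nearest gene start (right). The difference falls from 6.48 to 2.63 points with CpG number and rises from 2.76 points within 250 bp to 4.80 points at 5 to 20 kb.

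Position relative to the MspI cut went with both trends. The 89255 shared cytosines in MspI sites, which stand at the start of an RRBS read, had a difference of 4.59 points ± 0.3005 (SD over autosomes, n = 19), and the 198512 outside sites had 3.04 ± 0.181. Site cytosines made up 75.7% of those with 1 to 4 CpGs nearby and 18.4% of those with 20 or more. Without them, the difference in excess between 20 or more and 1 to 4 CpGs changed from −3.85 to −2.09 points. The difference in excess between cytosines within 1 kb of a gene start and those 20 kb or more away changed from −2.04 to −0.435 points. At 10 to under 50% the excess was 8.57 points ± 0.920 in sites and 3.03 ± 1.14 outside when grouped by A, and 9.44 ± 0.911 and 5.41 ± 1.04 when grouped by B. At 50 to 100% it was 6.32 ± 1.33 in sites and −0.450 ± 1.37 outside when grouped by A, and 7.45 ± 1.31 and 1.97 ± 1.30 when grouped by B.

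At site cytosines the excess also increased with the length of the MspI fragment that begins there. This split was chosen after the data were seen. Over all levels it was 1.76 points ± 1.04 (SD over autosomes, n = 19) for fragments of 40 bp or less, 2.27 ± 0.430 at 41 to 60 bp, 4.53 ± 0.546 at 81 to 100 bp and 7.66 ± 0.894 over 220 bp. Outside sites the range was narrower, from 2.48 points ± 0.517 in fragments of 40 bp or less to 3.55 ± 0.425 at 161 to 220 bp. Within held-out levels the shortest and longest fragments kept this order. At 10 to under 50% the excess at sites rose from 4.84 points at 40 bp or less to 12.8 points over 220 bp when grouped by A, and from 4.43 to 13.7 points when grouped by B. Below 10% it rose from 1.02 to 6.59 points and from 1.25 to 6.41 points. At 50 to 100%, with few cytosines, it was −0.164 points ± 7.49 against 9.66 ± 14.02 when grouped by A, and 0.961 ± 6.75 against 9.29 ± 11.01 when grouped by B. Below 10% PBAT at sites rose with fragment length, from 5.25 to 8.18% when grouped by A, while RRBS B fell from 4.23 to 1.59%. CpG number fell with fragment length, from a mean of 18.5 CpGs at sites of fragments of 40 bp or less to 9.61 over 220 bp. At a fixed 5 to 9 CpGs and 10 to under 50%, the excess at sites was 7.84 points for fragments up to 60 bp and 10.3 points over 100 bp when grouped by A, and 7.504 and 12.6 points when grouped by B. The cause of the trend with fragment length was not tested.

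**Figure D4:**
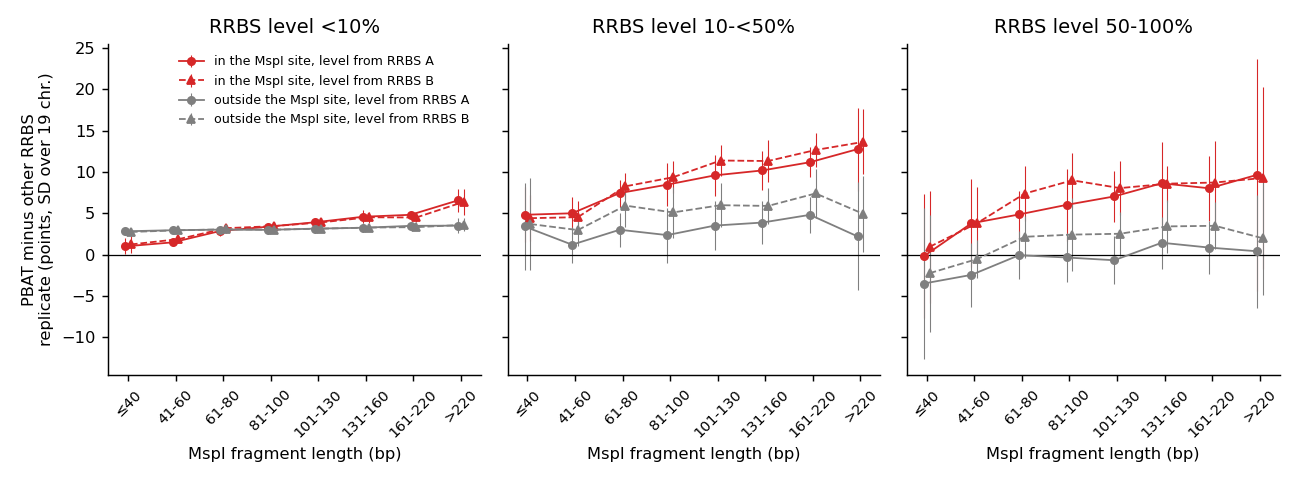
PBAT minus the RRBS replicate not used for grouping (y axis, percentage points, bars for the SD over 19 autosomes) by length of the MspI fragment (x axis, bp) at 3 levels of RRBS methylation, for cytosines in the MspI site (red) and outside it (grey). At 10 to under 50%, site cytosines rise from 4.84 and 4.43 points at 40 bp or less to 12.8 and 13.7 points over 220 bp.

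Imprinted and other listed genes were described by the mean of their shared cytosines, with a minimum of 3. Over all 12733 gene bodies, the PBAT mean was above both RRBS means in 73.7% and below both in 8.93%, and the median difference was 2.90 points. Of 28 gene bodies at maternal gDMRs, PBAT was above both RRBS libraries in 21, below both in 4 and between them in 3, with a median difference of 6.14 points. Some of these bodies overlap, as those of Nnat and Blcap do, so that some cytosines are counted more than once. Each body was taken whole, so these values do not describe the gDMRs alone. Snurf and Snrpn, which share 5 cytosines, had 77.1% in PBAT, 40.0% in A and 29.9% in B. Nap1l5 had 47.2%, 24.6% and 36.8% over 7 cytosines. Inpp5f, a phosphoinositide phosphatase gene, had 43.3%, 22.8% and 27.5% over 7. Gnas had 44.2%, 34.4% and 40.0% over 102 cytosines. Closer values were found at Trappc9, which had 29.1%, 26.7% and 28.2% over 65, and at Commd1, which had 19.7%, 19.2% and 19.05% over 61. Kcnq1, a potassium channel gene with a gDMR in its body, had 48.0%, 45.7% and 46.1% over 37 cytosines. Igf2r, the receptor for insulin-like growth factor 2, had 45.6%, 43.5% and 39.7% over 19. PBAT was below both RRBS libraries at Plagl1, with 51.4% against 57.6% and 63.2%, at Peg10, with 51.0% against 63.0% and 57.8%, at Grb10, with 12.6% against 20.1% and 28.4%, and at Slc38a4, with 58.8% against 59.0% and 65.4%. Of the genes at paternal germline imprints, Igf2 had 3.004% in PBAT, 0.70% in A and 1.18% in B over 30 cytosines of its body. Dlk1 had 3.57%, 0 and 13.6% over 4.

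**Figure D5:**
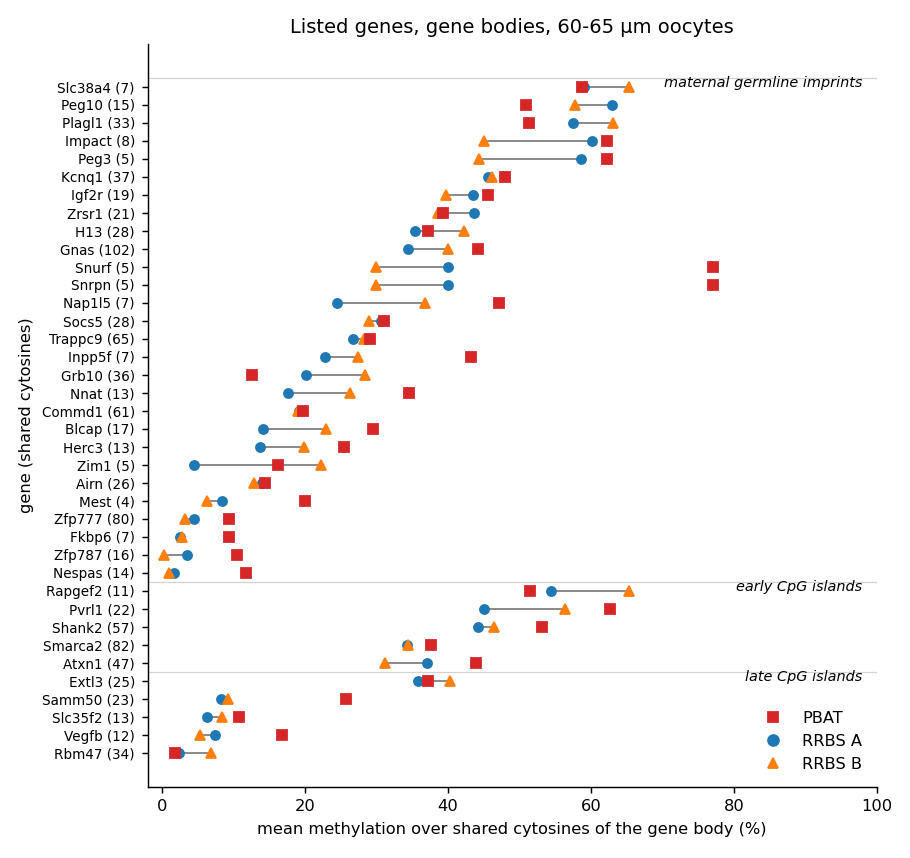
Mean methylation over the shared cytosines of gene bodies (x axis, %) in PBAT (squares), RRBS A (circles) and RRBS B (triangles), with the range of A and B as a line and the number of cytosines beside each gene. PBAT lies above both RRBS libraries in 21 of 28 genes at maternal gDMRs, some of which overlap. It lies farthest above them at Snurf and Snrpn, with 77.1% against 40.0% and 29.9%.

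Genes of early and late CGIs showed both close and distant values. Among the 5 early genes PBAT was above both RRBS libraries in 4 bodies and below both in 1. Smarca2 had 37.7% in PBAT against 34.3% and 34.4% over 82 cytosines, Shank2 53.2% against 44.2% and 46.5% over 57, and Atxn1, the ataxin gene, 44.0% against 37.1% and 31.1% over 47. Rapgef2, a guanine nucleotide exchange factor, was lower in PBAT, with 51.5% against 54.5% and 65.3% over 11. Among the 5 late genes PBAT was above both in 3, below both in 1 and between them in 1. Rbm47, an RNA-binding protein gene, was lower in PBAT, with 1.79% against 2.34% and 6.89% over 34 cytosines. Extl3, a glycosyltransferase of heparan sulphate, had 37.2%, 35.8% and 40.3% over 25 cytosines. Vegfb, a growth factor gene, had 16.8%, 7.46% and 5.36% over 12, and Samm50 had 25.8%, 8.32% and 9.30% over 23. At gene starts, taken as 1 kb on either side, 10976 had at least 3 shared cytosines. PBAT was above both RRBS means in 72.5% and below both in 8.17%, with a median difference of 2.17 points. Of 10 housekeeping gene starts PBAT was above both in 8, with a median difference of 1.74 points, and no library exceeded 5.77%. Of 22 Hox gene starts PBAT was above both in 16, with a median difference of 2.21 points. In Hox gene bodies the widest gaps were at Hoxa9, with 17.5% in PBAT against 0 and 0.40% over 25 cytosines, and at Hoxb6, with 17.4% against 0 and 0.635% over 10. Actb, which encodes cytoplasmic actin, had 2.69% in PBAT, 1.53% in A and 0.183% in B over 26 cytosines. Of 8 starts of methylation machinery genes PBAT was above both in 7. Dnmt3b, a de novo methyltransferase, had 32.3%, 20.01% and 28.0% over 57 cytosines, and Uhrf1, which guides maintenance methylation, had 2.29%, 0.452% and 0.167% over 26. Of the 15 oocyte genes, Lhx8 and Kit alone had 3 shared cytosines at their starts. Lhx8, a homeobox gene, had 10.0%, 0.410% and 0, and Kit, the receptor for Kit ligand, had 6.34%, 2.29% and 2.86%.

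For gene starts, methylated and unmethylated calls were summed and compared between the assays by the quasi-likelihood test of edgeR, with Benjamini-Hochberg adjustment. The spread came from A and B alone, and the lone PBAT library was assumed to vary like them. Gene starts with at least 5 shared cytosines and 5% or more as the average of all 3 libraries were tested. Of 339 gene starts, 99 (29.2%) passed an adjusted p of 0.05, 94 with PBAT higher and 5 with PBAT lower. Of the 94, 86 had a mean under 5% in RRBS and passed the filter only with PBAT counted in. At these starts the filter placed PBAT above the RRBS mean beforehand. The count of 94 is therefore no measure of how often PBAT is higher. With the minimum of 5% set on RRBS, which was chosen after the data were seen, 12 of 198 passed, 7 higher and 5 lower. With the spread taken from all 7 methylation libraries 2 of 329 passed. With at least 10 calls per cytosine edgeR called 0 of 77, with 7 at an unadjusted p of 0.05. Without A it called 0 of 724, with 106 at an unadjusted p of 0.05, and without B 2 of 680, both fitted with the RRBS libraries of the other size classes. DESeq2 on the 339 starts called 76. Among the 10 called starts with the largest excess, 2 had more than 5% in RRBS. Samm50 had 40.1% in PBAT against 11.2% and 7.504% over 16 cytosines (adjusted p = 0.0221 with edgeR, and 0.450 with all 7 libraries). Syt5, a synaptotagmin gene, had 35.4% against 8.56% and 5.63% (adjusted p = 0.00986 with edgeR, and 0.286 with all 7 libraries). The other 8 entered the test through PBAT alone, so that the filter fixed their direction, and their values are a description. They were Pex7, which encodes a peroxisomal import receptor (27.1% against 0 and 0), Kctd13, a ubiquitin ligase adaptor gene (25.3% against 0.193% and 0), 6330503K22Rik, Rsc1a1 and Ddi2, which share a start, the methyl-CpG binding protein gene Mbd1, Ccdc104 and Fignl1. The last 6 had PBAT between 20 and 23.3% and RRBS between 0 and 1.39%. None of these 8 passed edgeR with all 7 libraries, where their adjusted p was between 0.108 and 0.150. The start of Gnas, also called by edgeR, likewise entered through PBAT alone (14.97% against 2.23% and 1.20% over 11 cytosines). EdgeR did not call the starts of Snurf and Dnmt3b. Of the 5 starts called lower, 4 had PBAT below both A and B. These were Gm10800 (27.1% against 65.9% and 70.3%), Vmn2r29 (20.1% against 49.7% and 58.2%), Gm7120 (45.3% against 60.7% and 64.0%) and the overlapping 3110070M22Rik (45.9% against 57.8% and 61.7%). At Gm10800, where 83.3% of the 6 cytosines were in repeat-masked sequence, PBAT had 12536 calls against 1580 in A. With all 7 libraries Gm10800 alone of these 4 passed (adjusted p = 0.0223 with edgeR), and the others had adjusted p between 0.132 and 0.324. The mean of PBAT lay between those of A and B at the fifth, Gm10801 (44.1% against 64.6% and 38.3%), and at Dzip1 and Phldb3, called higher. These 3 starts lay outside the rule for named genes and were named after their values were seen.

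The same test over 2-kb windows called none. In simulated data it missed most windows changed by 30 points, so the absence of calls does not show that the assays gave equal levels. Of 2973 windows with at least 5 shared cytosines and a mean of at least 5%, 0 (0%) passed an adjusted p of 0.05 with edgeR, whose smallest adjusted p was 0.184. At an unadjusted p of 0.05, 483 windows passed, 454 with PBAT higher and 29 lower, and DESeq2 called 151, 148 higher and 3 lower. With at least 10 calls per cytosine edgeR called 46 of 480, 40 higher and 6 lower. The minimum of 5% averaged all 3 libraries, so windows could pass it through a high PBAT value. At such windows the filter fixed the direction, and the splits into higher and lower are no measure of how often PBAT is higher. The same filter selected the tested windows, where the median absolute difference was 8.75 points between PBAT and mean RRBS, and 4.99 points between A and B. Over all 15221 windows with at least 5 shared cytosines these differences were 2.68 and 0.685 points.

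Single cytosines were compared by Fisher's exact test on the calls of each pair of libraries (two-sided, Benjamini-Hochberg adjustment over 287767 cytosines). It tests the calls of these libraries and not the assays. PBAT differed from A at 459 cytosines (0.16%) and from B at 550 (0.191%), and A differed from B at 764 (0.265%) with more calls on both sides. PBAT was higher than A and than B at 241 cytosines (0.0837%) and lower than both at 48 (0.0167%). The calls were concentrated on 1 stretch of chromosome 17 (chr17:39842001-39850000, GRCm38), where GENCODE M21 annotates the ribosomal RNA gene CT010467.1 and the long non-coding RNA genes Gm26917, Gm42418 and AY036118. Its 4 windows of 2 kb were the only ones with 5 or more called cytosines. It held 435 shared cytosines, with a median of 231 calls in PBAT, 1655 in A and 843 in B. PBAT was higher than both RRBS libraries at 100 of them and lower at 27. The 100 had a mean of 27.9% in PBAT against 11.3% in A and 9.30% in B, and 27 of them were in MspI sites. The mean over the stretch was similar in all libraries, with 18.9% in PBAT, 18.7% in A and 18.8% in B. The order of cytosines differed. Across its cytosines r was −0.00271 between PBAT and A, −0.0466 between PBAT and B, and 0.782 between A and B (n = 435 cytosines, which share reads). Ribosomal RNA genes occur in many copies in the genome, and reads of all copies can align to such a stretch; whether copies differed between the libraries was not tested. Elsewhere, 141 cytosines were higher in PBAT and 21 lower. The 141 had a mean of 65.01% in PBAT against 2.37% and 2.25%, and 78 (55.3%) were in MspI sites, against 31.0% of all shared cytosines. The 21 had 20.4% in PBAT against 76.5% and 79.3%. When the test was adjusted without this stretch, which was chosen after the data were seen, 102 were higher and 15 lower.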

How the data were processed

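The authors trimmed reads with Trim Galore 0.3.5 and aligned them to GRCm38 with Bismark, version 0.14.0 for RRBS and 0.10.0 for PBAT. They removed duplicates from PBAT, and no removal is stated for RRBS. The deposited methylation tables give methylated and unmethylated counts of calls per CpG cytosine, not normalised, with their percent, and the authors' RNA-seq table gives RPKM. The 3 methylation libraries held 94501474 (PBAT), 32684543 (A) and 29275627 (B) autosomal calls. All sample columns belonged to the series.

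From the counts, percentages were computed for cytosines with at least 5 calls in each library. CpG number was counted in GRCm38 within 100 bp on either side, gene starts came from the deposited gene table and annotations from GENCODE M21. Counting variance was subtracted from squared differences. Fisher's exact test was computed from log factorials with numba 0.67.0, and Wilson intervals used scipy 1.17.1. Summed calls of regions were tested with edgeR 4.0.16 (R 4.3.3), with a term for each library and one for the methylation of each assay, and DESeq2 1.42.0 was an alternative. Scripts ran in Python 3.11.15 and were tested on simulated data. Alternatives changed the minimum of calls, strands, repeats, MspI sites, grouping library, replicates and region filters. Intervals cover counting error only.

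Named genes were up to 10 called windows and gene starts in each direction by size of the difference, and listed genes with at least 3 shared cytosines. Other genes, among them Hoxa9, Hoxb6, Gm10801, Dzip1 and Phldb3, and the fragments shown were chosen after their values were seen. The comparison, members and lists were chosen with earlier results of these data known.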

Additional observations from a re-analysis of the deposited data

How the results depend on the processing

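The mean excess of PBAT kept its sign under every alternative run. It was 3.08 points at cytosines with at least 10 calls, 3.04 outside MspI sites and 3.10 with calls pooled over all cytosines, and between 3.37 and 3.67 when A or B was left out. The mean of both correlations with RRBS was 0.804, and became 0.872 with a minimum of 10 calls, 0.751 with 3 and 0.649 with 1. The share within 20 points was then 92.9%, 87.0% and 85.3%, and it was 91.3% outside repeats, 92.3% outside MspI sites and between 89.4 and 90.4% without A or B. The mean spread beyond counting error was 9.04 points, and 7.99 outside MspI sites. The contrast of cytosines at 50% or more against those under 10% was −1.17 points and changed sign when grouped by B (0.778) and by PBAT (17.6). It was −4.50 when grouped by the mean of RRBS, −3.55 outside MspI sites, −2.58 with a minimum of 1 call, −0.649 with 10 and −0.300 outside repeats. The contrast of 20 or more against 1 to 4 CpGs was −4.56 points with a minimum of 10 calls, −3.74 with 3, −3.49 with 1 and −2.09 outside MspI sites. It was −3.70 with CpGs counted within 50 bp and −3.27 within 500 bp. The contrast of under 1 kb against 20 kb or more from gene starts was −2.36 points with a minimum of 10 calls, −0.435 outside MspI sites and −1.20 with starts of expressed genes. The cause of these changes was not tested. Single cytosines called in both pairs fell from 289 to 117 without the stretch of chromosome 17. For windows edgeR called 0, 2 (1 in each direction) without a minimum of mean methylation and 46 with at least 10 calls, and DESeq2 151. For gene starts the count of 99 became 546 without a minimum of mean methylation, 33 with at least 10 cytosines, 12 with 5% set on RRBS alone, 2 with all 7 libraries and 0 with at least 10 calls, and was 0 to 2 without A or B. The spread beyond counting error cannot be computed at 1 call, and the contrast by level needs both RRBS replicates. No paired analysis was possible because the PBAT library carries no replicate letter. The single PBAT library and its median of 7 calls limit every comparison.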
